A study of Rattus norvegicus with 12 samples.

Results

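Signals of 9 genes that encode scaffold proteins of the postsynaptic membrane were examined in rat hippocampus: Dlg1, Dlg2, Dlg3, Dlg4, Shank1, Shank2, Shank3, Dlgap1 and Gphn. They were taken as every probe set (the group of oligonucleotide probes that measures a transcript) whose only gene symbol in the array annotation was one of these names. That gave 18 of the 15923 probe sets on the array, and all 9 genes were present. Dlg3, Dlg4 and Dlgap1 had 3 probe sets each, Dlg1, Shank1 and Shank2 had 2, and Dlg2, Shank3 and Gphn had 1. Of the 18, 15 lay among the 9520 probe sets bright enough to be tested, with at least 1 for every gene. For each gene the probe set of highest mean signal is called its main probe set.

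The arrays came from young rats treated at postnatal day 20, in 4 groups of 3 RNA samples, and each sample joined the hippocampi of 3 to 4 animals. PBS_isolated and KA_isolated rats were given PBS (phosphate-buffered saline, the vehicle) or KA and then housed singly for 10 days. PBS_enriched and KA_enriched rats had the same treatments and shared large enriched cages, 8 to a cage. How long they stayed in these cages is not stated in the labels. KA, which the labels leave unexpanded, is read as kainic acid, an agonist of glutamate receptors that provokes seizures, because seizures are the subject of the series. Strain and sex were not given in the sources used here. No group had standard group housing, and litter and cage are not named, so enrichment, isolation and a shared cage cannot be told apart. The study asked whether enriched housing lessens the injury that seizures cause to neurons.

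At excitatory synapses, glutamate receptors are held opposite the release site by the postsynaptic density, a layered protein mesh under the membrane. The Dlg proteins form its upper layer and bind receptor tails and adhesion molecules through PDZ domains. Dlgap1 links that layer to the Shank proteins beneath it, and Shank proteins bind Homer and the actin network of the dendritic spine. Gphn (gephyrin) is not a part of the postsynaptic density. It builds the corresponding lattice at inhibitory synapses, where it anchors glycine receptors and many GABA-A receptors.

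Array levels were close, with medians of 70.06 to 74.1, and no arrays were identical. KA_enriched replicate 3 stood apart on the first principal component, at -19.1 against -0.837 to 7.07 for the other 11 samples, and its beta-actin probe sets showed the highest excess of 3 prime over 5 prime signal (log2 0.85 against 0.36 to 0.64), a measure of RNA integrity. The 5 neuronal and 5 interneuron markers present on the array were all bright enough to be tested. Signals were 2084 to 2550 for the vesicular glutamate transporter gene Slc17a7 and 975 to 1129.5 for Gad1 of GABA synthesis. Some were dimmer, such as Gad2 at 118 to 198, where the median over all probe sets tested was 154.6. Of 7 markers of the neighbouring thalamus and striatum, 4 were bright enough to be tested. These were Ppp1r1b (115 to 173), Prkcd (70.9 to 97.0), Rgs9 (60.1 to 82.5) and Tcf7l2 (55.8 to 82.4). The receptor genes Drd1, Drd2 (20.6 to 48.6) and Adora2a were too dim. In bulk tissue, fewer cells of a type and less RNA per cell cannot be told apart.

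No scaffold gene passed the test across all probe sets in any comparison. In each of 7 comparisons, limma called 0 of the 15 tested scaffold probe sets at a Benjamini-Hochberg adjusted p under 0.05. For the 9 main probe sets, the 95% intervals of the KA effect ran at the widest from 0.68-fold to 1.21-fold in isolated rats and from 0.681-fold to 1.58-fold in enriched rats. Those of the housing effect ran from 0.563-fold to 1.21-fold after PBS and from 0.721-fold to 1.38-fold after KA. Averaged over both housings the KA effect had intervals from 0.744-fold to 1.31-fold, an average in which the opposite Shank1 values of the housings (log2 -0.25 and 0.27) cancel, and averaged over both treatments the housing effect had 0.717-fold to 1.17-fold. The interaction was the least precise, from 0.687-fold to 1.93-fold. Fold changes here are on the scale of log2(signal + 17) and understate those of dim genes. The differences largest for their error were those of Shank3 between KA and PBS in enriched rats, and of 1 Shank1 probe set between housings after PBS.

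**Figure D1:**
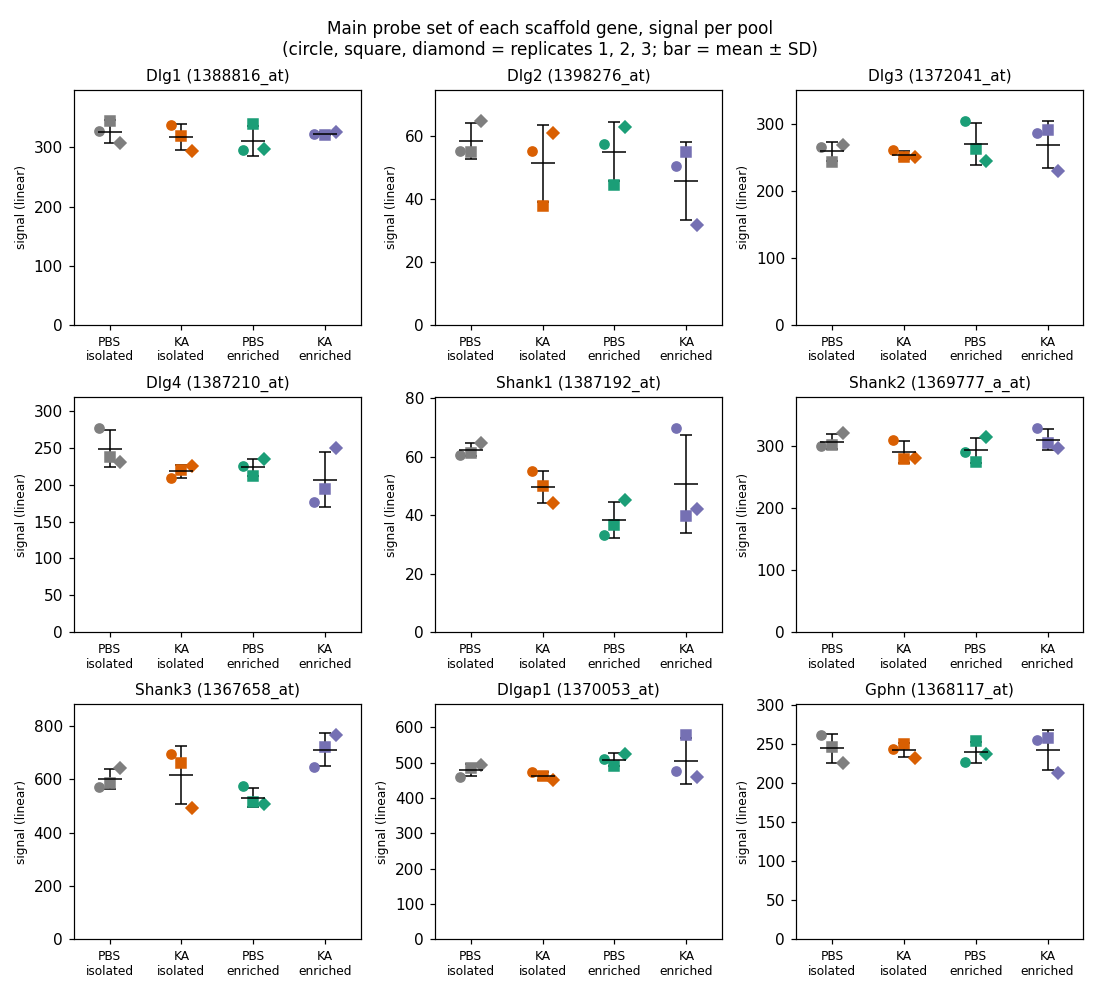
Signal (linear scale, axis from 0) of the main probe set of each of the 9 genes in the 12 pools, by group; symbols are the 3 replicates, and bars are mean ± SD (n = 3). Shank3 is 645 to 768 in KA_enriched against 507 to 575 in PBS_enriched, and Shank1 is 33.1 to 45.3 in PBS_enriched against 60.7 to 64.8 in PBS_isolated.

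Of the Dlg genes, Dlg4 encodes PSD-95, the most abundant scaffold of mature excitatory synapses. In isolated rats its main probe set, 1387210_at, had signals of 278, 238 and 232 in PBS replicates 1, 2 and 3 and of 209, 220.4 and 226 in the KA replicates. In enriched rats it had 225, 212 and 235 after PBS and 177, 195 and 249.6 after KA. The isolated groups did not overlap, while in enriched rats KA pools held both the lowest values and the highest. The KA effect in isolated rats was a log2 of -0.17 (SE 0.11, adjusted p = 0.999) and that in enriched rats -0.12 (SE 0.11, adjusted p = 0.958). A second Dlg4 probe set, 1371183_a_at, ran from 72.6 to 125 with overlap in every comparison, and the remaining one, 1389901_at, was too dim to be tested and ran from 25.7 to 56.1.

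Dlg3 encodes a Dlg protein that is prominent early in synapse development. In isolated rats its main probe set had 266, 243 and 268 after PBS and 260.2, 250.1 and 250.0 after KA. In enriched rats the values were 305, 262 and 244 after PBS and 286, 291 and 229 after KA. All 4 groups overlapped. The probe set 1387393_at of the same gene had 153, 143 and 127 after PBS against 133, 116 and 85.2 after KA in enriched rats, and 123, 108 and 137 against 116, 111 and 97.5 in isolated rats. Its means were lower after KA in both housings, and single pools overlapped in both. The KA effect averaged over housings was a log2 of -0.24 (SE 0.091, unadjusted p = 0.0224, adjusted p = 0.996, limma). The main probe set gave -0.02 (SE 0.071) for the same comparison, and the third, 1388280_a_at, ran from 133 to 191 with overlap in every comparison. Without KA_enriched replicate 3, the effect of 1387393_at in enriched rats was -0.16 against -0.31 with it.

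Dlg1, which traffics AMPA receptors and also serves in epithelial polarity, was among the steadiest members. Isolated rats had 327, 346 and 308 after PBS and 338, 319 and 294 after KA for its main probe set, and enriched rats 295, 339.7 and 298 after PBS and 322, 322 and 326 after KA. These values overlapped throughout. The other Dlg1 probe set, 1368944_at, had 141, 151 and 144 after PBS and 135, 121 and 133 after KA in isolated rats, which did not overlap. Enriched rats had 121, 133 and 146 after PBS and 165, 128 and 76.3 after KA. The last value belongs to replicate 3, the array that stood apart, and without it the KA effect in enriched rats moved from a log2 of -0.15 to 0.12. Dlg2, which anchors NMDA receptors and potassium channels, was dim. Its signal in isolated rats was 55.5, 54.9 and 65.0 after PBS and 55.3, 37.8 and 61.2 after KA. That in enriched rats was 57.5, 44.7 and 63.1 after PBS and 50.4, 55.2 and 31.8 after KA, and every comparison overlapped.

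The Shank genes differed in how their pools were arranged. Shank3, whose protein ties the postsynaptic density to the spine cytoskeleton, had signals of 575, 515 and 507 after PBS and of 645, 723 and 768 after KA in enriched rats. Its values in isolated rats were 572, 588 and 644 after PBS and 695, 660.1 and 493 after KA. In enriched rats all 3 KA pools lay above all 3 PBS pools, while in isolated rats KA pools held both the highest and the lowest value. The KA effect was 1.33-fold in enriched rats (log2 0.41, SE 0.12, 95% interval 0.15 to 0.66) and 1.01-fold in isolated rats (log2 0.02, SE 0.12, interval -0.23 to 0.27). In enriched rats its unadjusted p of 0.00408 was 45th in order of 9520 and its adjusted p = 0.842 (limma). The highest of these pools was KA_enriched replicate 3, which stood apart, and without it the effect was a log2 of 0.35 (unadjusted p = 0.0184, adjusted p = 0.704, limma).

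Shank1, a scaffold of mature spine heads, was dim, and its 2 probe sets disagreed. The tested one, 1387192_at, had 60.7, 61.4 and 64.8 after PBS and 55.2, 49.8 and 44.0 after KA in isolated rats. It had 33.1, 36.5 and 45.3 after PBS and 69.9, 39.6 and 42.1 after KA in enriched rats. PBS_isolated, which serves as the reference of both comparisons, lay above KA_isolated and above PBS_enriched without overlap, and KA_enriched replicate 1 was the highest of all 12 pools. After PBS the housing difference was 0.695-fold (log2 -0.53, SE 0.14, 95% interval -0.83 to -0.22), with an unadjusted p of 0.00245, 23rd in order, and an adjusted p = 0.994 (limma). Its mean signal of 50.2 was close to the dimmest level tested, and a lower pseudocount of 1 gave a log2 of -0.70. The second probe set, 1368445_at, was too dim to be tested. Isolated rats had 51.8, 28.9 and 48.5 after PBS and 44.7, 34.0 and 31.7 after KA there, and enriched rats 54.2, 43.9 and 42.3 after PBS and 42.1, 22.7 and 35.0 after KA. KA_enriched lay just below PBS_enriched without overlap, whereas the PBS groups overlapped and the enriched mean was the higher one, at 46.8 ± 6.45 against 43.1 ± 12.4 (SD, n = 3).

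**Figure D2:**
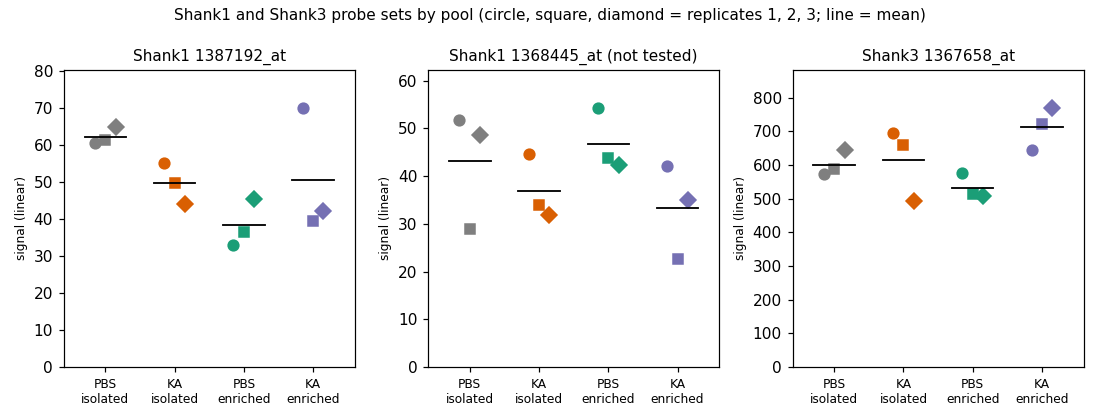
Signal (linear, axis from 0) of both Shank1 probe sets and of the Shank3 probe set in the 12 pools; symbols are replicates and lines are group means. PBS_enriched (33.1 to 45.3) lies below PBS_isolated (60.7 to 64.8) for Shank1 1387192_at, but the groups overlap for 1368445_at; Shank3 is separated between PBS and KA in enriched rats and not in isolated rats.

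Shank2, which occurs in the same spines as Shank1 and Shank3, varied little. In isolated rats the main probe set had 299, 301 and 320.2 after PBS and 310.0, 279 and 279.8 after KA. In enriched rats it read 290.0, 274 and 315 after PBS and 329, 305 and 296 after KA. All groups overlapped, and its coefficient of variation over the 12 pools was 5.76%. Its other probe set, 1369776_a_at, was below the filter, ran from 15.2 to 66.1 and had a coefficient of variation of 40.2%.

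Dlgap1, the link between Dlg and Shank proteins, had signals of 459.6, 484 and 492 after PBS and of 473, 463 and 450.4 after KA in isolated rats. Those in enriched rats were 512, 490.2 and 525 after PBS and 476, 579 and 459 after KA. Enriched means were 509 and 505 and isolated means 479 and 462, but the ranges overlapped. The mean housing effect was a log2 of 0.10 (SE 0.061, adjusted p = 0.879). Without KA_enriched replicate 2, which held the value 579, it was 0.05. The other Dlgap1 probe sets overlapped in every comparison, 1387802_at between 402 and 524 and 1388057_a_at between 134 and 213.

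Gphn, the only inhibitory scaffold among the genes, was nearly level. Signals in isolated rats were 262, 246 and 225 after PBS and 243, 250.4 and 232 after KA, and those in enriched rats were 227, 253 and 237 after PBS and 255, 258 and 212 after KA. Group means lay between 239 and 244. The KA effect had a 95% interval of -0.20 to 0.18 on the log2 scale in isolated rats and of -0.18 to 0.20 in enriched rats.

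Comparing KA with PBS in isolated rats, 14 of the 15 tested probe sets had lower means after KA and 1, Shank3, a higher one. The median log2 was -0.06 against -0.01 over all 9520, of which 47.7% were higher. Of the 9 main probe sets, 8 were lower in this comparison, 7 with equal array medians or quantile normalization, and 6 without KA_isolated replicate 3. Probe sets of a gene are not independent, all 15 share the same 6 pools, and the differences were within the error for each. By limma, 0 scaffold probe sets passed the adjusted threshold (0.0105% of all tested did) and 0 had an unadjusted p under 0.05 (4.31% of all). Groups did not overlap for 3 that were lower, namely Dlg4 1387210_at, Shank1 1387192_at and Dlg1 1368944_at (5.62% of all were lower without overlap), and for 0 that were higher (5.19%). The mean score of the microglial markers was apart in the same pools. All 5 listed (Aif1, Csf1r, P2ry12, Cd74 and C3) were tested. Their mean centred log2 score was 0.30 to 0.57 in KA_isolated against -0.36 to -0.27 in PBS_isolated. Mean signals in KA_isolated and PBS_isolated were 138 and 39.1 for Cd74 and 93.4 and 28.7 for C3. They were 313 and 206 for Csf1r and 170 and 114 for P2ry12, but Aif1 was level, at 66.3 and 65.6. The score of the 4 astrocyte markers, all tested, was 0.06 to 0.12 against -0.11 to 0.02. The neuronal markers, 5 of 7 tested, overlapped, at -0.11 to 0.03 and -0.003 to 0.10. Of these 5, 3 had higher and 2 lower means after KA, and 1 of those lower had an unadjusted p under 0.05 (limma). Camk2a had 854 ± 87.7 in KA_isolated against 1125 ± 147 in PBS_isolated (SD, n = 3). Whether a changed cell make-up has a part in the scaffold values was not tested.

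In enriched rats, 5 of 15 probe sets had higher means after KA and 10 lower, with a median log2 of -0.02 against -0.003 over all probe sets tested. limma called 0 (0% of all), and 2 had an unadjusted p under 0.05, Shank3 and Dlg3 1387393_at (4.98% of all). Only the Shank3 groups did not overlap, with KA higher (5% of all), and 0 were lower without overlap (4.62%). Microglial scores overlapped here, at -0.37 to 0.45 in KA_enriched and -0.38 to 0.43 in PBS_enriched. The mean score of the neuronal markers was highest in KA_enriched replicate 3, at 0.15, the pool with the highest Shank3. Within its group that pool was also highest for microglial (0.45), astrocyte (0.12) and thalamus and striatum markers (0.08). It was lowest there for interneuron (-0.09), oligodendrocyte (-0.09) and endothelial markers (-0.16). The neuronal list holds Camk2a, which is also listed among the scaffold and signalling genes below. The part of these scores in the Shank3 value was not tested. Averaged over both housings, KA against PBS gave 0 called by limma (0.0105% of all) and 2 with an unadjusted p under 0.05, the same pair of probe sets (4.31% of all).

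**Figure D3:**
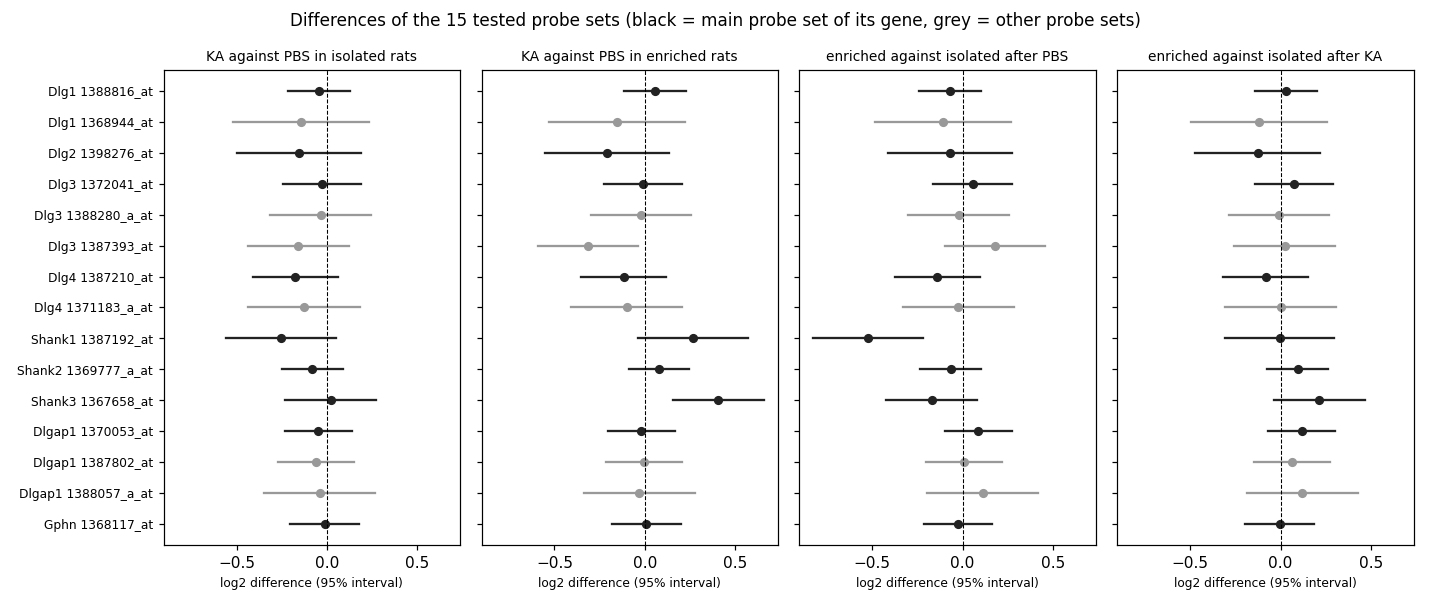
Log2 differences (points, on the scale of log2(signal + 17)) with 95% intervals of the limma fit for the 15 tested probe sets in 4 comparisons; black marks the main probe set of a gene and grey its others. Unadjusted intervals leave 0 only for Shank3 and Dlg3 1387393_at in enriched rats and for Shank1 after PBS.

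Between housings after PBS, 5 probe sets had higher and 10 lower means in enriched rats, with a median log2 of -0.03 against 0.003 over all tested. limma called 0 (0.0105% of all), and 1 had an unadjusted p under 0.05, Shank1 1387192_at (4.21% of all). That probe set was also the 1 that was lower without overlap (6.11% of all), and 0 were higher without overlap (5.49%). Thalamus and striatum markers, 4 of 7 tested, had scores of 0.06 to 0.12 in PBS_enriched and -0.14 to 0.03 in PBS_isolated. Choroid plexus markers, 2 of 4 tested, had -0.68 to -0.34 in PBS_enriched and -0.59 to 1.93 in PBS_isolated, and their gene Ttr had a signal of 117 ± 22.7 against 1020.2 ± 1474 (SD, n = 3), with 2719 in PBS_isolated replicate 1. Without that pool the Shank1 difference was a log2 of -0.54, with choroid plexus scores of 0.08 and -0.59 in PBS_isolated replicates 2 and 3. The part of either marker list in the Shank1 value was not tested. After KA, 9 probe sets were higher and 6 lower. limma called 0 (0% of all), 0 had an unadjusted p under 0.05 (7.02% of all), and 0 were separated upward (6.28%) or downward (4.53%). Shank3 had a log2 of 0.21 (SE 0.12) and Shank1 one of -0.01 (SE 0.14). Averaged over treatments, limma called 0 (0.021% of all) and 1 had an unadjusted p under 0.05, Shank1 1387192_at (5.64% of all), with a log2 of -0.27 (SE 0.099, adjusted p = 0.832).

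Whether the response to KA differed between housings was tested by the interaction, the KA difference of enriched rats less that of isolated rats. limma called 0 of 15 (0% of all), and 2 had an unadjusted p under 0.05 (4.97% of all). These were Shank1 1387192_at, with a log2 of 0.52 (SE 0.20, adjusted p = 0.936), and Shank3, with 0.39 (SE 0.17, adjusted p = 0.951). Both were positive: for Shank1 the KA mean was lower than the PBS mean in isolated rats and higher in enriched rats, and for Shank3 only the enriched groups were apart. Without KA_enriched replicate 1, the pool with the Shank1 signal of 69.9, the Shank1 interaction was 0.32. Without KA_isolated replicate 3, the pool with the lowest Shank3 signal, the Shank3 interaction was 0.24. The untested Shank1 probe set pointed the other way, with an interaction of -0.21 (SE 0.25) when no filter was applied. For the remaining main probe sets the interaction lay between -0.06 (Dlg2) and 0.16 (Shank2).

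Where a gene had several probe sets, some moved together over the 12 pools and some did not. Pearson correlations of log2 values, given as a description, were 0.62, 0.72 and 0.62 among the 3 Dlg3 probe sets, 0.73 for Dlgap1 1370053_at and 1387802_at, and 0.66 for the Shank2 pair. They were 0.02 for the Dlg1 pair, 0.12 for the Shank1 pair, -0.08 for the tested Dlg4 pair, and 0.03 for Dlgap1 1370053_at and 1388057_a_at. All probe sets share the same 12 arrays. KA_enriched replicate 3 was the lowest of the 12 pools for 7 of the 15 tested probe sets, against 16.7% of all probe sets tested. It was the highest for 1, Shank3, against 16.7% of all probe sets tested. Among the main probe sets of different genes, the highest correlation was between Shank1 and Shank2 (0.64) and the lowest between Dlg3 and Dlg4 (-0.50).

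**Figure D4:**
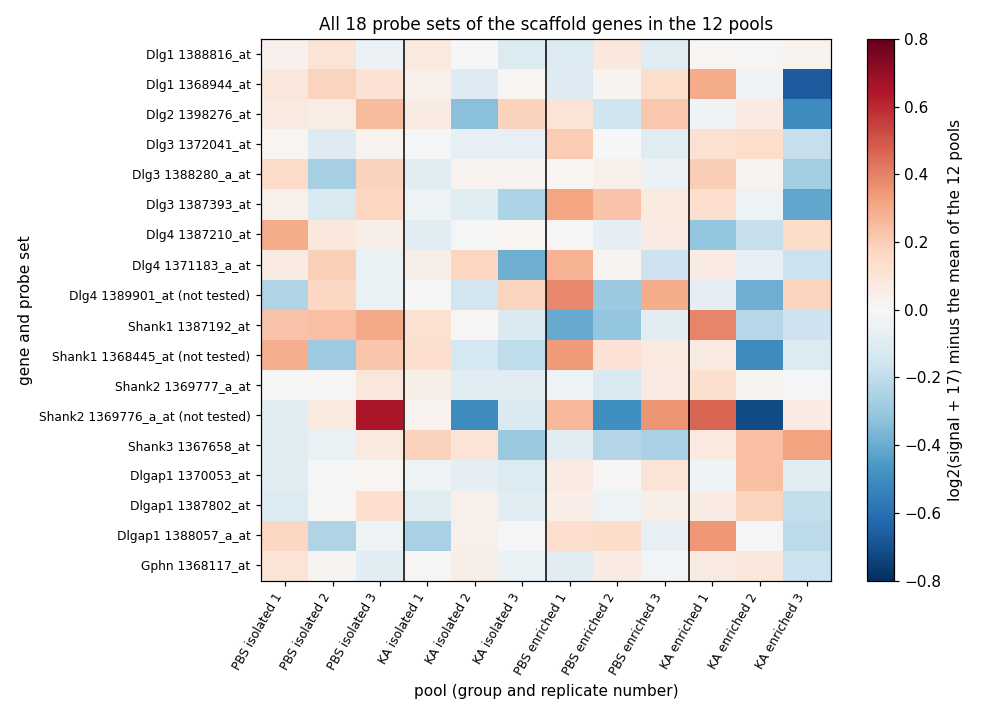
Log2(signal + 17) of all 18 probe sets in the 12 pools, each centred on its mean over the pools; columns are pools by group and replicate, and red is above and blue below the mean. KA_enriched replicate 3 is the lowest pool for 7 of the 15 tested probe sets (16.7% of all tested) and the highest for 1, Shank3 (16.7% of all tested).

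Other postsynaptic genes were read from 4 lists, 1 probe set per gene. None of their tested members passed in any of the 7 comparisons: 0 of 12 further membrane-associated guanylate kinases and PDZ partners, 0 of 21 other excitatory scaffold and signalling genes, 0 of 17 excitatory receptor and adhesion genes, and 0 of 13 partners of gephyrin (limma). At an unadjusted p under 0.05, KA in isolated rats had 1 scaffold and signalling gene higher and 3 lower and 0 in the other lists (4.31% of all probe sets tested, in either direction). Among those lower were Itpka, a kinase of inositol trisphosphate in spines (log2 -0.21, SE 0.077), and Arc, which regulates AMPA receptor uptake (-0.35, SE 0.13). In enriched rats KA had 2 higher (4.98% of all passed that level), Sipa1l1 (0.27, SE 0.11), a spine regulator that binds Dlg4, and Abi2 (0.20, SE 0.086), of actin remodelling. Neither passed the adjusted threshold. Averaged over treatments, the housing effect had 3 guanylate kinase list members higher and 0 lower at that level (5.64% of all). Among them were Magi3, a scaffold with several PDZ domains (0.26, SE 0.083), and Cask (0.17, SE 0.071), a presynaptic and postsynaptic relative of the Dlg proteins. In that comparison, 5 of the 12 tested genes of the list had higher and 7 lower means, with a median log2 of -0.008. After PBS alone 8 were higher and 4 lower (median 0.05), and after KA alone 6 were higher and 6 lower (median 0.008). For the housing effect averaged over treatments, the scaffold and signalling list had 1 higher and 1 lower at an unadjusted p under 0.05 (limma). The receptor and adhesion list and the gephyrin partners each had 1 higher and 0 lower. For Magi3 the housing difference was 0.42 (SE 0.12) after KA, with signals of 106 ± 15.3 in isolated and 146 ± 6.58 in enriched rats (SD, n = 3). After PBS it was 0.11 (SE 0.12), with 119 ± 17.6 and 129 ± 16.7. Arc had the smallest p of all listed genes for the housing effect averaged over treatments (0.58, SE 0.093, adjusted p = 0.105, limma). Its signals after PBS were 249 ± 27.6 in isolated and 318 ± 32.7 in enriched rats, and those after KA 191 ± 8.59 and 356 ± 78.6 (SD, n = 3). For KA over both housings, 1 gephyrin partner was lower and 1 higher at that level (4.31% of all). The GABA-A receptor subunit gene Gabra5 had -0.22 (SE 0.079, adjusted p = 0.996) and Vasp, of actin assembly, 0.15 (SE 0.068, adjusted p = 0.996), while Gphn itself had -0.001 (SE 0.062).

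The tested genes whose pattern over the 12 pools was most like a member were found by the Pearson correlation of log2 values with 6922 other genes, so the highest values were high by choice. They were Wdr59 (r = 0.88, Spearman's rho 0.87) and Klf3 (0.85, rho 0.87) for Shank3, Gas7 (0.88, rho 0.89) and Epb41l1 (0.87, rho 0.87) for Shank1, and Smad7 (0.87, rho 0.92) and Spred3 (0.86, rho 0.87) for Shank2. For Dlg1 they were Prr13 (0.84) and Acbd4 (0.83), for Dlg2 Wrnip1 (0.91) and Nfrkb (0.88), for Dlg3 Pex5l (0.91) and Susd6 (0.85), and for Dlg4 Smim29 (0.83) and Eif4ebp1 (0.82). For Dlgap1 they were Dhx15 (0.89) and Hspa5 (0.89), and for Gphn Lsm14a (0.92) and Lasp1 (0.91). None of the 18 is another scaffold gene of the lists examined.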

How the data were processed

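RNA of 12 pooled hippocampus samples was measured on single-colour Affymetrix-type arrays. The deposited values are probe set intensity (signal) on a linear scale; for how probes were summarised, nothing was given in the sources used here. Judged by the values, the authors' arrays share a mean of 150 after trimming 2% at each end, so no further scaling was done.

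After removal of 57 control probe sets, 15866 remained; on the scale of log2(signal + 17), the brightest 60% by mean were tested (9520). Symbols came from the array annotation; 12754 of 12789 single-symbol probe sets matched a RefSeq gene table by Entrez ID, which changed 0 symbols. Groups were compared with limma 3.58.1 (R 4.3.3; lmFit, eBayes) in 1 model of 4 group means over all 12 samples (13.1 degrees of freedom). P-values are two-sided and Benjamini-Hochberg adjusted over all probe sets tested; SEs and intervals are the model's. The steps were tested on simulated data. The number of arrays limits the precision, and p-values measure the spread between pools.

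The members and lists were chosen with earlier results of these data known. Named genes were every member probe set, the 2 most correlated genes per member, and at most 2 genes of smallest p per list and comparison. Alternatives were the pseudocount, the filter, scaling, the samples in the fit, array weights, a replicate block and leaving out each sample. Same-numbered samples were not paired. The correlation of their deviations from group means was over 0.1 in 2 of 18 pairs (median 0.0564). That of differently numbered samples was over 0.1 in 1 of 36 pairs (median -0.0154). These values do not settle whether samples of the same number share a factor, and the replicate block was tried for that reason.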

Additional observations from a re-analysis of the deposited data

How the results depend on the processing

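Limma called 0 scaffold probe sets under every alternative tried, in all 7 comparisons; the lowest adjusted p of any was 0.171, for Shank1 1387192_at between housings over both treatments without KA_enriched replicate 1. Of 1233 alternative values of the main probe sets, 1141 kept their sign and 92 changed it, all uncalled. Of the whole array's counts, KA against PBS in isolated rats went from 1 to 5 called when the other groups were left out of the fit, and KA against PBS over both housings from 1 to 0 with no filter. Housing after PBS went from 1 to 2 with array weights and lay between 1 and 2 when a sample was left out. Housing after KA lay between 0 and 1 when a sample was left out. Housing over both treatments went from 2 to 1 with a pseudocount of 1, with equal medians, with array weights and with the replicate block, and lay between 1 and 2 when a sample was left out. The cause of these shifts was not tested. The replicate block otherwise moved no count by over 1.5 times; 5 of 12 samples correlated best with a sample of their own number. Among tested probe sets the SE of a comparison of groups was highest for Dlg1 1368944_at (0.174) and next for Dlg2 (0.159).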

Other observations

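The 3 scaffold probe sets below the filter for brightness, of Dlg4, Shank1 and Shank2, had no call in any comparison when no filter was applied. The largest of their differences was that of Shank2 1369776_a_at for KA in isolated rats, with a log2 of -0.41 (SE 0.31). Its pools ranged from 20.3 to 36.9 in KA_isolated and from 32.8 to 66.1 in PBS_isolated.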
